A study of Mus musculus with 12 samples.

Results

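The interferon regulatory factor (IRF) family was followed in mouse acute myeloid leukemia blasts through the 8 genes Irf1, Irf2, Irf3, Irf4, Irf5, Irf7, Irf8 and Irf9. They were taken by symbol from the 24454 genes of the deposited table, and 8 of 8 passed the filter on low values, which 11476 genes passed. The blasts derived from fetal liver cells of wildtype (WT) mice or of mice lacking the STAT3β isoform (Δβ). Cells of both genotypes carried a retrovirus encoding the MLL-AF9 fusion with a Venus reporter and had grown in male immunocompromised NSG mice, which were 6 to 8 weeks old at transplantation. Venus+ blasts of diseased hosts were sorted from spleen (SP) and bone marrow (BM), and 3 libraries were made for each genotype and organ, giving 12 in 4 groups. The WT comparator therefore also carried the fusion, and healthy cells were not part of these samples. The labels do not say whether the 3 libraries of a group came from separate hosts or transformed cultures, so p-values measure only the spread between these libraries.

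IRF proteins share a DNA-binding domain that recognizes GAAA repeats, the core of the interferon-stimulated response element (ISRE). IRF3 and IRF7 lie downstream of nucleic acid sensors and switch on type I interferon genes, IRF9 belongs with STAT2 to the ISGF3 complex that carries the type I interferon (IFN) signal, and IRF1 is induced by interferons and drives antigen presentation genes. IRF4 and IRF8 bind DNA together with the myeloid and lymphoid factor PU.1, encoded by Spi1, and IRF8 directs progenitors towards monocytes and dendritic cells. IRF5 acts downstream of Toll-like receptors in macrophages, and IRF2 can oppose IRF1 at shared sites.

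Values are normalized counts, that is reads on a gene divided by a size factor of the library, and 1 read was worth 0.775 to 1.17 normalized counts. Libraries held 9001051 to 13859727 reads on genes. WT SP replicate 3 stood apart from its group, with a Pearson's r across genes of 0.897 to WT SP replicate 1, and Δβ BM replicate 3 had an r of 0.929 to Δβ BM replicate 1. All 7 blast markers, among them Ptprc, Kit and Hoxa9, were expressed in the 12 libraries. Markers of plasmacytoid dendritic cells, which express Irf7 and Irf8 strongly, summed to 2.25 to 26.2 normalized counts over 5 genes, and those of conventional dendritic cells to 17.1 to 49.0 over 5 genes. The T and NK cell markers summed to at most 249 normalized counts in BM and 68.2 in SP, in Δβ replicate 1 of each organ. These libraries also held the highest Irf1 value of their organ. NSG hosts lack T and NK cells, and the part of such cells in the results was not tested. Neutrophil granule genes summed to 39972 to 186586 normalized counts over 5 genes. Macrophage markers summed to 863 to 5537 normalized counts over 6 genes and B cell markers to 4.51 to 50.1 over 4 genes. Most of the macrophage sum was Vcam1, with 699 to 5511 normalized counts. Cd163 reached at most 228, and C1qa, C1qb, C1qc and Mrc1 reached at most 30.8. Whether such cells contributed to the levels of the members was not tested. Stat3 was read per gene, with group means of 2781 to 3690 normalized counts, which cannot show the loss of the β isoform.

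Irf8 and Irf5 were the most abundant members per kb of annotated exon, and Irf4 was the least abundant. The length was the union of the exons of all annotated transcripts, 2905 bases for Irf5 and 7055 for Irf8, and not that of a single mRNA. Unscaled group means were 3544 to 5398 normalized counts for Irf8 and 1691 to 3383 for Irf5. The order of Irf5 and Irf8 therefore depends on the length used. Scaled to annotated exon length, the mean level over the 12 libraries was 753 normalized counts per kb for Irf5, 624 for Irf8, 307 for Irf1, 257 for Irf3, 148 for Irf9, 131 for Irf2, 94.9 for Irf7 and 10.9 for Irf4. Irf8 ranked highest in 7 libraries and Irf5 in 5. Per kb, Irf5 ranged over the group means from 582 ± 232 (SD, n = 3) in Δβ BM to 1165 ± 906 (SD, n = 3) in WT SP, and Irf8 from 502 ± 250 (SD, n = 3) in WT SP to 765 ± 264 (SD, n = 3) in Δβ SP, so these neighbours were not separated beyond their spread. Irf1 and Irf3 held ranks 2 to 5 and overlapped as well. Irf9, Irf2 and Irf7 held ranks 4 to 7, and Irf4 was in rank 8 in each of the 12 libraries. The spread within groups also differed between members. The coefficient of variation was 4.31 to 10.2% for Irf3 and 38.7 to 69.7% for Irf4.

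**Figure D1:**
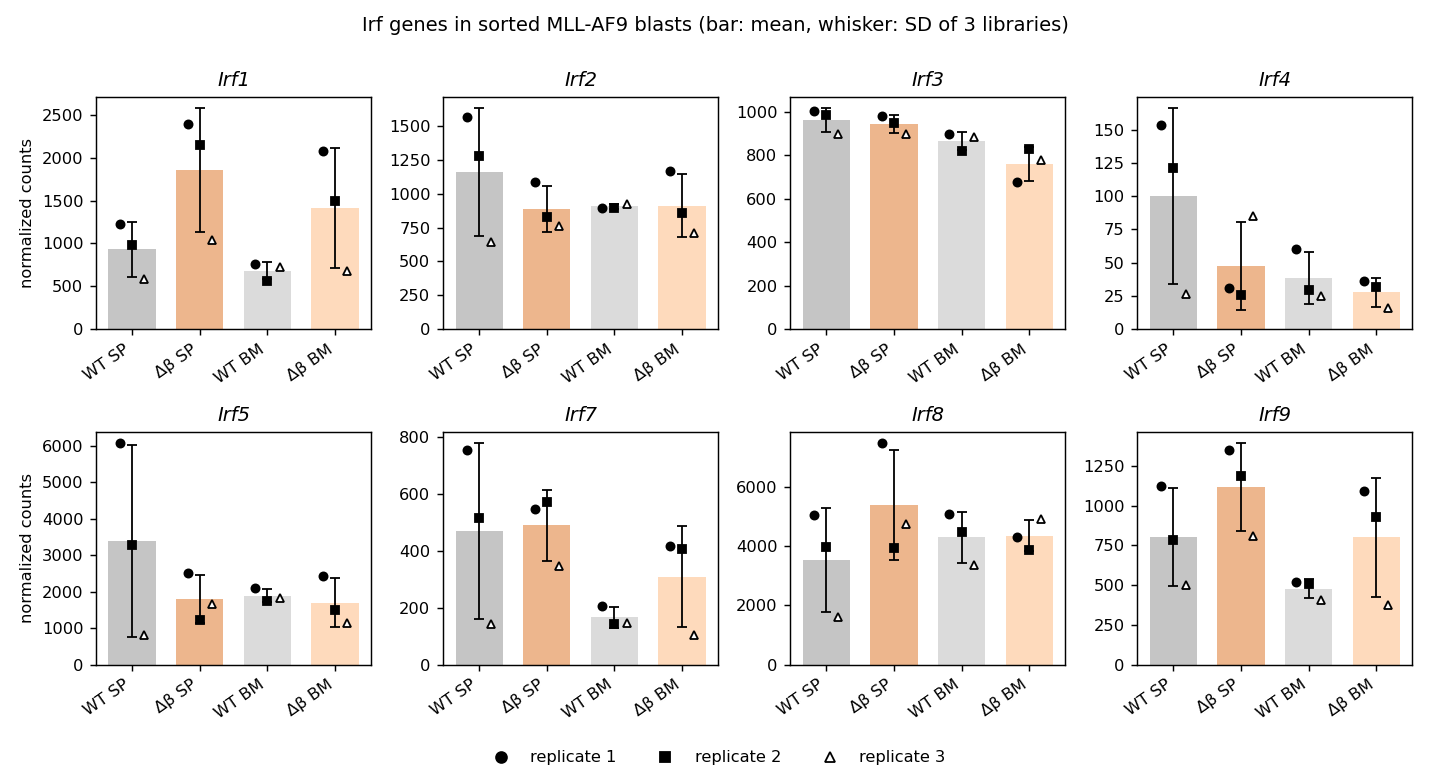
Normalized counts (y axis, starting at 0) of the 8 Irf genes in the 4 groups on the x axis, with a bar for the mean, a whisker for the SD of 3 libraries and a symbol for each library. Irf1 reached 2396 and 2145 in Δβ SP replicates 1 and 2, whereas WT SP replicate 3, an open triangle, was the lowest WT SP library for 8 of 8 genes.

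Irf1, which lies on the plus strand of chromosome 11 from 53770014 to 53778374 (GRCm38), had the largest genotype difference in the positive direction. Its SP values were 1223, 982 and 586 normalized counts in WT replicates 1, 2 and 3 and 2396, 2145 and 1034 in Δβ replicates 1, 2 and 3. The BM values were 759, 564 and 728 normalized counts for WT and 2072, 1499 and 681 for Δβ replicates. In each organ 2 Δβ libraries lay above all WT libraries, while Δβ replicate 3 lay within the WT range. Against WT, the log2 fold change of Δβ blasts was 0.97 in SP (SE, standard error of the fit, 0.43, unadjusted p = 0.0453, adjusted p = 0.329 by limma after Benjamini-Hochberg correction) and 0.92 in BM (SE 0.43, unadjusted p = 0.0560, adjusted p = 1.0). Irf1 thus did not pass the threshold of 0.05 after adjustment in either organ. Without WT SP replicate 3 the log2 fold change in SP was 0.67 (adjusted p = 0.308), and without replicate 3 of every group it was 1.05 (adjusted p = 0.0376, limma). In BM it was 1.38 without Δβ BM replicate 3 (adjusted p = 0.654) and 1.43 without replicate 3 of every group (adjusted p = 0.0743). Leaving out replicate 3 of every group drops the lowest Δβ library of Irf1 in each organ and the lowest WT SP library.

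Irf9 and Irf7, which carry and amplify the type I IFN response, were also higher in Δβ BM replicates 1 and 2 than in any WT BM library, but differed from Irf1 in other libraries. Irf9 had 1121, 783 and 501 normalized counts in replicates 1, 2 and 3 of WT SP against 1352, 1184 and 810 in Δβ SP, and 522, 504 and 408 in WT BM against 1094, 930 and 377 in Δβ BM. For Irf9 the Δβ libraries numbered 1 and 2 were above all WT libraries of their organ, whereas Δβ replicate 3 lay within the WT range in SP and below it in BM. The log2 fold change of Irf9 was 0.52 in SP (SE 0.39, adjusted p = 0.514 by limma) and 0.61 in BM (SE 0.39, adjusted p = 1.0). Irf7 had 752, 516 and 141 normalized counts in WT SP and 548, 571 and 347 in Δβ SP, so that the highest library was a WT one. For BM the counts were 206, 143 and 147 normalized counts in WT and 417, 404 and 105 in Δβ blasts, where Δβ replicate 3 was the lowest of 6. The log2 fold change of Irf7 was 0.33 in SP (SE 0.63, adjusted p = 0.807 by limma) and 0.67 in BM (SE 0.63, adjusted p = 1.0). Irf7 turned to -0.38 in SP when WT SP replicate 3 was left out (adjusted p = 0.631). Without Δβ BM replicate 3 the log2 fold change in BM was 1.33 for Irf7 (adjusted p = 1.0) and 1.08 for Irf9 (adjusted p = 0.720), so that neither passed with limma.

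Stat2, which encodes a partner of IRF9 in ISGF3, was measured beside them. Stat2 had 786, 886 and 654 normalized counts in WT SP and 1128, 950 and 888 in Δβ SP, without overlap, as was the case for 17.3% of all genes tested in SP. Its log2 fold change there was 0.35 (SE 0.17, adjusted p = 0.357 by limma), beside 0.14 in BM with overlapping groups. In BM, Δβ replicate 3 was the lowest Δβ library for Irf1, Irf7 and Irf9.

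**Figure D2:**
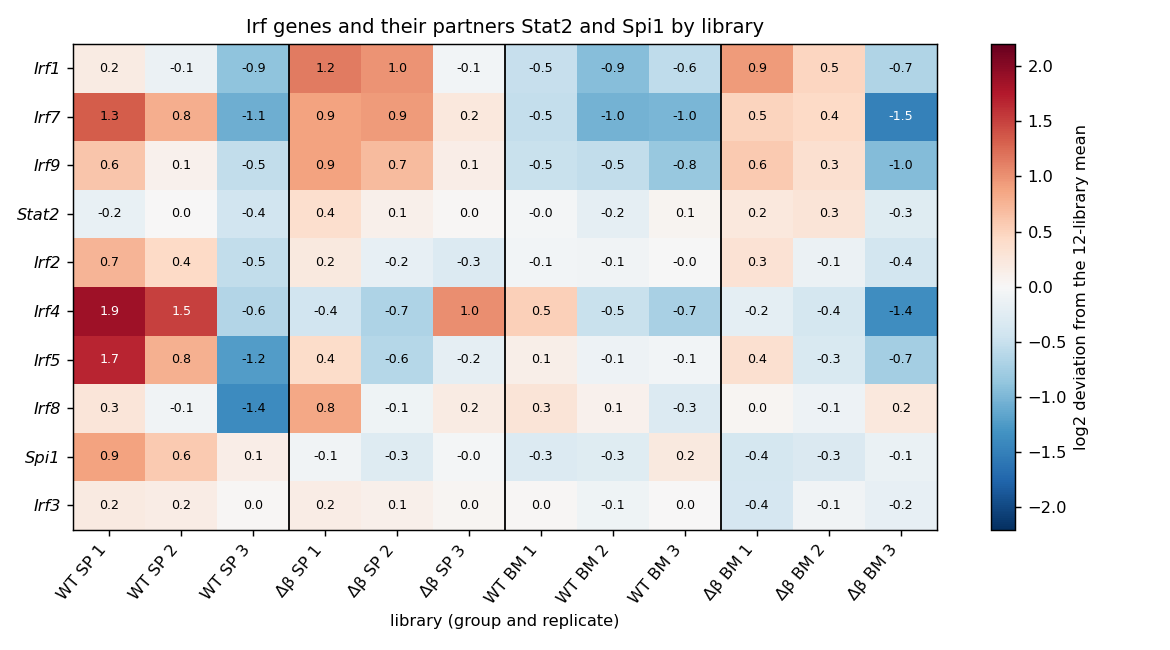
Deviation of each gene (rows, the 8 Irf genes with Stat2 and Spi1) from its own mean over the 12 libraries (columns, by group and replicate), as log2(normalized count + 1), with red above and blue below the mean. Irf1, Irf7 and Irf9 were above their means in replicates 1 and 2 of Δβ SP and Δβ BM and below them in Δβ BM replicate 3, while Irf4 and Irf5 were highest in WT SP replicate 1.

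Irf8 lies on the plus strand of chromosome 8 from 120736358 to 120756694 (GRCm38). The WT SP libraries held 5057, 3973 and 1603 normalized counts of it against 7498, 3932 and 4764 in Δβ SP, and 5085, 4480 and 3382 in WT BM against 4306, 3869 and 4921 in Δβ BM. The groups overlapped in both organs. The log2 fold change was 0.71 in SP (SE 0.38, adjusted p = 0.387 by limma), where the lowest WT library carried much of it. It was 0.21 when WT SP replicate 3 was left out (adjusted p = 0.593). In BM the fold change of Irf8 was 0.03, with a 95% confidence interval of -0.80 to 0.86. Spi1, its PU.1 partner, was lower in each Δβ SP library, with 9726, 7918 and 5839 normalized counts in WT and 5011, 4348 and 5135 in Δβ replicates (log2 fold change -0.67, SE 0.19, adjusted p = 0.218 by limma). In BM the Spi1 groups overlapped, with a log2 fold change of -0.16 (adjusted p = 1.0). When WT SP replicate 3 was left out, the adjusted p of Spi1 in SP was 0.0150 (limma).

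Upstream sequences are shown for the 3 members whose promoter window held the letters of a STAT-binding site, since the genotypes differ in an isoform of a STAT factor. RefSeq promoter windows (GRCm38.p6, 250 bases before to 50 after the start) were matched for 8 of 8 members, in 11 windows. They were searched on both strands for TTCNNNGAA, the gamma-activated site (GAS) that STAT dimers recognize, for an ISRE with the letters GAAA, any 2 bases and GAAA, and for a kB site with the letters GGGA, any 4 bases and CC. Capitals mark the matches below, which are given 5′ to 3′ on the plus strand. For Irf1 the stretch chr11:53769894-53770013 is shown, with a GAS match at 90 and a kB match at 13 bases before the start. For Irf8 it is chr8:120736158-120736237, with GAS matches at 171 and 153 bases before the RefSeq start, and for Irf2 chr8:46739495-46739544, with an ISRE match at 241 and a GAS match at 224.
Irf1: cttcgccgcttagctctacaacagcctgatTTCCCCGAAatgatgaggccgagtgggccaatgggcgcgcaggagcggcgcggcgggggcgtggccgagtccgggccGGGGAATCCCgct
Irf8: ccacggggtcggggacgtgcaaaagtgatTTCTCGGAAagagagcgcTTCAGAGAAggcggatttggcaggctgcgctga
Irf2: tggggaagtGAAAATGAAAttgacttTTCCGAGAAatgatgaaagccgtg
GAS letters occurred in 8.3% of the 32851 windows of all genes, ISRE letters in 3.44% and kB letters in 20.7%. Beyond the printed matches, Irf8 held kB letters in the same window as its GAS matches and Irf4 held them at 182 bases before the start. The windows of Irf3, Irf5, Irf7 and Irf9 did not hold these letters. A match is a description of the sequence and was not tested for binding.

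Irf2, Irf4 and Irf5 were highest in WT SP replicate 1 and lay lower in most other libraries. Irf5 had 6069, 3272 and 810 normalized counts in replicates 1, 2 and 3 of WT SP, a 7.49-fold range within the group, and 2507, 1225 and 1649 in Δβ SP. For BM the counts were 2086, 1752 and 1820 normalized counts in WT and 2439, 1503 and 1132 in Δβ replicates. The log2 fold change of Irf5 was -0.56 in SP (SE 0.59, adjusted p = 0.643 by limma) and -0.23 in BM (SE 0.59, adjusted p = 1.0). Irf2 had 1569, 1277 and 643 normalized counts in WT SP and 1084, 827 and 762 in Δβ SP, with a log2 fold change of -0.31 (SE 0.29, adjusted p = 0.607 by limma). In BM the Irf2 values were 898, 893 and 929 in WT and 1168, 859 and 710 in Δβ blasts, around the same level. Irf4 had 154, 121 and 26.4 normalized counts in WT SP and 31.0, 25.8 and 85.4 in Δβ SP, and 60.5, 29.3 and 25.2 in WT BM against 35.9, 31.5 and 15.5 in Δβ BM. Irf4 showed a log2 fold change of -0.93 in SP (SE 0.68, adjusted p = 0.501 by limma) and -0.43 in BM (SE 0.68, adjusted p = 1.0).

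The call for these members in SP depended on WT SP replicate 3. Without that library, Irf5 was lower in Δβ blasts with a log2 fold change of -1.37 (SE 0.37, adjusted p = 0.0335 by limma), Irf2 with -0.68 (SE 0.21, adjusted p = 0.0488) and Irf4 with -1.71 (SE 0.57, adjusted p = 0.0647). In that fit 16.4% of all genes tested passed in SP, so 2 of 8 members was read against a high background. Without replicate 3 of every group, Irf4 passed at -2.23 (adjusted p = 0.0280, limma) together with Irf1, and 7.47% of all genes did. For Irf4 that fit drops the highest Δβ SP library (85.4) and the lowest WT SP library (26.4), so this p-value holds only for the libraries kept.

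Irf3, the constitutively expressed member that is activated by phosphorylation, was the steadiest. Its normalized counts were 1005, 985 and 899 in WT SP, 980, 951 and 900 in Δβ SP, 896, 821 and 882 in WT BM and 676, 829 and 777 in Δβ BM. Against WT, the log2 fold change of Δβ blasts was -0.03 in SP, with a 95% confidence interval of -0.26 to 0.20, and -0.19 in BM, with an interval of -0.42 to 0.04. These were the narrowest intervals among the 8 members.

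Over the whole family, 0 of 8 members passed an adjusted p of 0.05 between Δβ and WT blasts with limma in SP, where 0.105% of all genes tested did, and 0 of 8 in BM, where 0.0697% did. At an unadjusted p under 0.05, 1 of 8 members (Irf1) was higher in SP, against 14.9% of all genes in both directions, and 0 of 8 in BM, against 2.59%. On recovered reads, edgeR and DESeq2 also called 0 members after adjustment in each organ (with 0.0349% and 3.98% of all genes called in SP, 0.0697% and 0.322% in BM) and 1 at an unadjusted p under 0.05 in each. The share of all genes at an unadjusted p is given for limma only, so such counts with edgeR and DESeq2 are not read as results about the members. No member had WT and Δβ groups that were free of overlap, whereas 17.3% of all genes in SP and 7.63% in BM did. The median log2 fold change of the members was 0.15 in SP and 0.00 in BM, beside -0.01 and -0.02 over all genes tested. With the libraries of both organs of a genotype and number averaged, 0 members passed (0.148% of all genes), and Irf1 had a log2 fold change of 0.95 (SE 0.36, unadjusted p = 0.0327, adjusted p = 0.464 by limma), the only member at an unadjusted p under 0.05, against 9.91% of all genes. The difference of the genotype effect between SP and BM ranged from -0.50 for Irf4 to 0.68 for Irf8 on the log2 scale, and 0 members passed in it (0% of all genes), with 0 at an unadjusted p under 0.05 in limma (3.2% of all genes), edgeR and DESeq2.

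**Figure D3:**
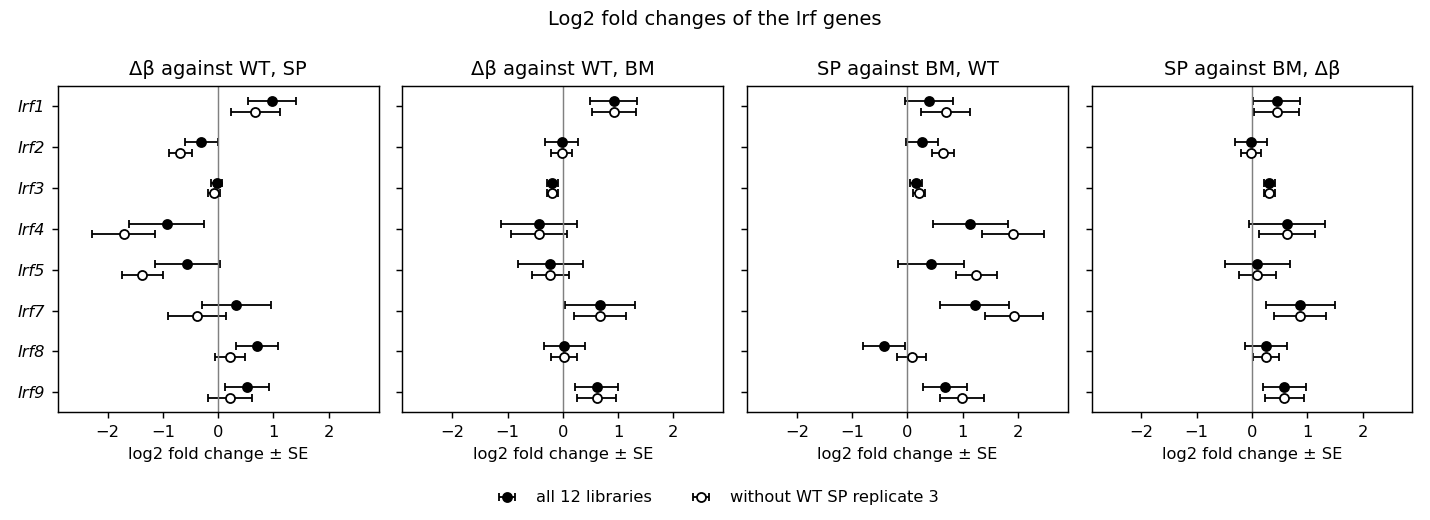
Log2 fold change (x axis) with its SE for the 8 Irf genes (y axis) in 4 comparisons, by limma with all 12 libraries (filled) and without WT SP replicate 3 (open). Without that library Irf5 moved from -0.56 to -1.37 and Irf7 from 0.33 to -0.38 in the comparison of Δβ with WT in SP, and the BM points stayed in place.

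Between the organs, 7 of 8 members had a higher mean log2 level in SP than in BM in each genotype, but the test called 0 of 8 in WT and 0 of 8 in Δβ blasts, as it did 0% of all genes. In WT blasts, 0 members had an unadjusted p under 0.05 with limma (8.27% of all genes), 1 with edgeR and 2 with DESeq2, and in Δβ blasts it was 1 with each tool (1.77% of all genes with limma). The share of all genes is given for limma only, so the edgeR and DESeq2 counts are not read as results about the members. The median log2 fold change of SP against BM over the members was 0.41 in WT and 0.38 in Δβ blasts, beside 0.00 over all genes tested in each. The largest values were 1.21 for Irf7 (SE 0.63, adjusted p = 0.621 by limma) and 1.13 for Irf4 (SE 0.68, adjusted p = 0.664) in WT blasts. For Irf7, WT SP replicates 1 and 2 were above all WT BM libraries and WT SP replicate 3 was below them. Without WT SP replicate 3 and Δβ BM replicate 3, a choice made after seeing the data, Irf7 (1.93, adjusted p = 0.0151 by limma) and Irf9 (0.98, adjusted p = 0.0397) passed in WT blasts, where 7% of all genes did. Irf3 alone had organ groups that did not overlap. It was higher in SP in WT (log2 fold change 0.15, adjusted p = 0.682 by limma) and in Δβ blasts (0.31, unadjusted p = 0.0112, adjusted p = 1.0), where 11.5% and 7.42% of all genes were free of overlap.

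In Δβ blasts an SP and a BM library with equal number deviated together, with an r across genes of 0.608 to 0.664 after removal of the group means, which was not seen in WT blasts (-0.237 to -0.009). Within these Δβ pairs Irf1, Irf3, Irf7 and Irf9 were higher in SP in 3 of 3 pairs, as were 15.7% of all genes. The SP minus BM difference of Irf1 was 0.21, 0.52 and 0.60 on the log2 scale in pairs 1, 2 and 3. For Irf9 it was 0.31, 0.35 and 1.10, and for Irf7 0.39, 0.50 and 1.72. With the pair as a block in the Δβ libraries alone, an alternative added after seeing the data, the adjusted p was 0.309 for Irf1 (log2 fold change 0.44, SE 0.10, limma), 0.354 for Irf9 (0.59, SE 0.16) and 0.370 for Irf7 (0.87, SE 0.26). The block thus changed no call.

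**Figure D4:**
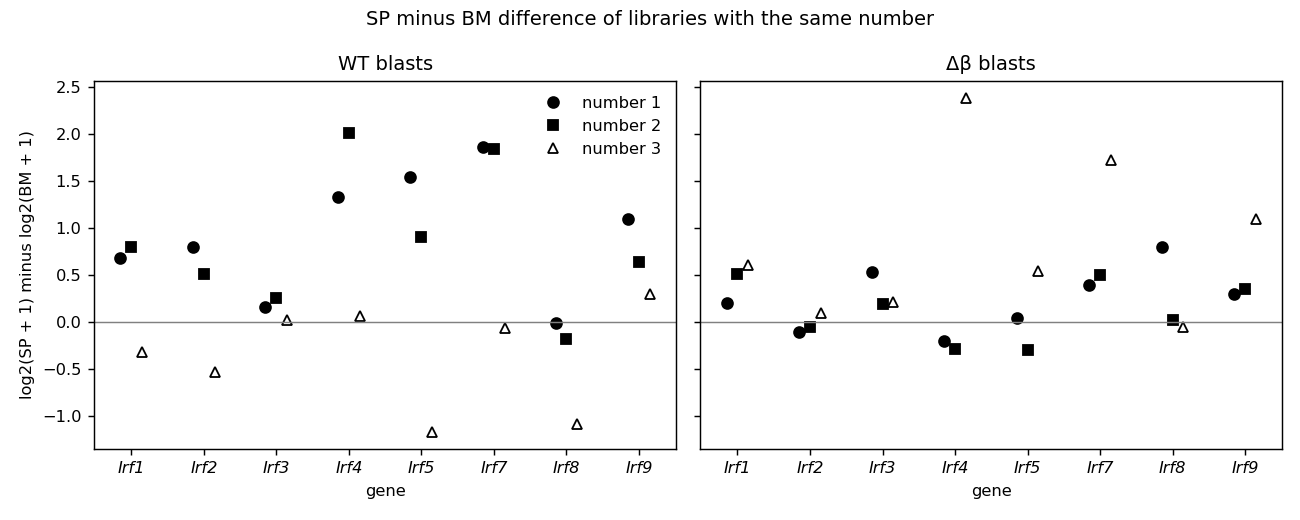
Difference between the SP and the BM library of the same number on the log2(normalized count + 1) scale (y axis) for the 8 Irf genes (x axis) in WT and Δβ blasts, with a symbol for each number. In Δβ blasts Irf1, Irf3, Irf7 and Irf9 were above 0 in 3 of 3 pairs, and in WT blasts number 3 was the lowest for 8 of 8 genes.

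Correlations between members across the 12 libraries are given as a description, since libraries share groups and Δβ libraries share numbers. Irf7 and Irf9 had a Pearson's r of 0.943 (Spearman's rho 0.909) on the log2 scale, Irf1 and Irf9 of 0.914 (rho 0.916) and Irf1 and Irf7 of 0.815 (rho 0.839). Irf2 and Irf5 had an r of 0.964 (rho 0.965). Irf1 with Irf3 had an r of 0.05. After removal of the group means the values were 0.937 for Irf7 with Irf9 and 0.964 for Irf2 with Irf5. Pairs across these sets were then also high, with 0.868 for Irf2 and Irf7 (0.685 before), 0.811 for Irf2 and Irf9 (0.541 before) and 0.797 for Irf1 and Irf2 (0.409 before), so that the 2 sets were less distinct within groups.

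Among the 11476 genes tested, the genes whose profile was most like that of Irf1 were Irgm2 (r = 0.950, n = 12 libraries), B2m (0.940) and Trim30a (0.937). Those most like Irf7 were Parp12 (0.972), Oas3 (0.968) and Ifi204 (0.962), and those most like Irf9 were Casp1 (0.970), Trim30a (0.960) and Parp12 (0.958). Irgm2, Oas3 and Ifi204 are known IFN-inducible genes, and Trim30a and Ifi204 belong to families of similar genes that could share reads. Irf2 was most like Sh3glb1 (0.980), Trim25 (0.971) and Ap1s2 (0.970), and Irf5 was most like Cd300lb (0.982), Atp7a (0.980) and Tnfaip8l2 (0.978). Irf4 was most like Nfkb2 (0.917), Filip1l (0.885) and Myadm (0.884), values that fell to 0.754, 0.705 and 0.656 without WT SP replicates 1 and 2. Irf8 was most like AI504432 (0.957), Gpr183 (0.928) and Apba1 (0.923), and without WT SP replicate 3 and Δβ SP replicate 1 these were 0.652, 0.823 and 0.639. Irf3 was most like Gripap1 (0.943), Adap1 (0.894) and Nfkbib (0.894).

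Genes on which IRF1 is known to act had mostly higher values in Δβ libraries, without passing after adjustment when all libraries were fitted with limma. Of 10 listed targets, mostly genes of antigen processing and presentation with Gbp2 and Il15 beside them, 10 were tested and 0 passed an adjusted p of 0.05 with limma in either organ. At an unadjusted p under 0.05, 7 of 10 were higher and 0 lower in Δβ SP, where 5.93% of all genes were higher, and 7 of 10 were higher in Δβ BM, where 1.25% were. The median log2 fold change was 0.85 in SP and 0.66 in BM. Δβ values lay above WT values without overlap for 6 in SP and 5 in BM, beside 7.92% and 3.5% of all genes. Like the other lists, this one was chosen with earlier results of these data known, and the paper had already named Gbp2 from this sequencing. The counts therefore describe the listed genes and are no independent test of IRF1 activity. The largest differences were those of Gbp2, a GTPase of cell-autonomous defence whose reads similar family members could share (log2 fold change 4.84 in SP and 4.76 in BM, SE 1.37, adjusted p = 0.218 and 1.0 by limma), and of Nlrc5, the transactivator of MHC class I genes. Nlrc5 had 51.3, 42.4 and 109 normalized counts in WT SP and 1287, 1299 and 235 in Δβ SP, and 21.8, 21.4 and 30.2 in WT BM against 867, 647 and 43.5 in Δβ BM. As for Irf1, Δβ replicate 3 was the lowest Δβ library in each organ (log2 fold change 3.54, SE 1.01, in both organs, adjusted p = 0.218 and 1.0 by limma). After adjustment DESeq2 called 5 of 10 in SP and 2 in BM (3.98% and 0.322% of all genes), edgeR 0, and limma called 5 of 10 in SP without WT SP replicate 3 (16.4% of all genes). Without replicate 3 of every group, limma called 5 of 10 in SP (7.47% of all genes) and 3 of 10 in BM (0.244%). In that fit Gbp2 had a log2 fold change of 6.64 in SP (adjusted p = 1.92e-05) and 6.71 in BM (adjusted p = 1.78e-05), and Nlrc5 one of 4.76 (adjusted p = 0.000179) and 5.05 (adjusted p = 0.000116). It drops the lowest Δβ and the highest WT library of both genes in each organ. The SE of Gbp2 was 0.19 there, against 1.37 with all libraries, so these p-values hold only for the libraries kept. When Δβ BM replicate 3 alone was left out, 0 of 10 passed in BM (0.0261% of all genes), with 6.60 for Gbp2 and 4.90 for Nlrc5 (adjusted p = 0.0514 for each by limma).

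Targets of the IRF9-containing ISGF3 complex, such as antiviral effectors, had less uniform values. Of 14 listed genes 11 were tested, of which 8 in SP and 10 in BM had a log2 fold change above 0, with medians of 0.45 and 0.41. With all libraries, none passed after adjustment with limma, edgeR or DESeq2, and at an unadjusted p under 0.05 with limma 2 were higher in SP, where 5.93% of all genes were, and 1 in BM, where 1.25% were. Without replicate 3 of every group, 1 passed in SP (Oasl2, adjusted p = 0.0376 by limma), where 7.47% of all genes did. In BM 0 passed in that fit, where 0.244% of all genes did. In SP 2 of the 11 targets were higher and 1 was lower without overlap of the groups. Over all genes tested, 7.92% were higher without overlap in SP and 17.3% were free of overlap in either direction. The lower target, named after its values were seen, was the antiviral gene Rsad2 (log2 fold change -0.73, SE 0.36, adjusted p = 0.368 by limma). Rtp4 had 7.98, 5.30 and 1.01 normalized counts in WT SP and 19.4, 97.5 and 18.1 in Δβ SP (log2 fold change 2.80, SE 1.05, adjusted p = 0.282 by limma). Oasl2, a 2′-5′ oligoadenylate synthetase-like gene, had 35.3, 21.2 and 12.2 in WT SP and 95.3, 156 and 68.3 in Δβ SP (2.21, SE 0.93, adjusted p = 0.312). In BM the gene without overlap was Ddx60, a helicase of the antiviral response, with 30.8, 68.7 and 78.6 normalized counts in WT and 270, 153 and 81.8 in Δβ replicates (1.43, SE 0.45, adjusted p = 1.0 by limma). Of all genes tested, 3.5% were higher without overlap in BM.

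The myeloid targets of IRF8 lay the other way in SP. Of 7 listed genes 6 were tested, of which 1 had a log2 fold change above 0 in SP and 3 in BM, with medians of -0.69 and -0.09. None passed with limma after adjustment, and 2 were lower in SP at an unadjusted p under 0.05, as were 8.96% of all genes. Klf4, a monocyte factor that acts downstream of IRF8, had 3884, 2592 and 848 normalized counts in WT SP and 705, 485 and 451 in Δβ SP (log2 fold change -1.93, SE 0.50, adjusted p = 0.218 by limma). Irf8 itself had a positive log2 fold change in SP, as given above. With WT SP replicate 3 left out, 3 of 6 passed in SP with limma (Klf4 at an adjusted p of 0.00834), where 16.4% of all genes did, and with DESeq2 it was 2, where 3.98% did.

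Upstream of the family, 17 of 21 listed sensors, adaptors and kinases were tested, and 0 passed after adjustment with limma in either organ. At an unadjusted p under 0.05, 1 was higher and 5 were lower in SP, beside 5.93% and 8.96% of all genes. In BM it was 1 and 1, beside 1.25% and 1.33%. Ikbke, which encodes the kinase IKKε that phosphorylates IRF3 and IRF7, had 1087, 964 and 1142 normalized counts in WT SP and 436, 332 and 520 in Δβ SP, the lowest adjusted p of this list (log2 fold change -1.33, SE 0.24, adjusted p = 0.0771 by limma). It passed without WT SP replicate 3 (adjusted p = 0.0172) and with DESeq2 (adjusted p = 0.000116), but not with edgeR (adjusted p = 0.0968). In BM the Ikbke groups overlapped (-0.44, adjusted p = 1.0). Irak4, a kinase of Toll-like receptor signaling, did not overlap in SP (-0.55, adjusted p = 0.218) or BM (-0.34, adjusted p = 1.0). Traf3, an adaptor, was lower without overlap in Δβ SP (-0.35, adjusted p = 0.225 by limma) and in Δβ BM (-0.26, adjusted p = 1.0). Without overlap, 1 of the 17 was higher and 4 were lower in SP, and 0 were higher and 2 lower in BM. Of all genes tested, 17.3% in SP and 7.63% in BM did not overlap in either direction. With WT SP replicate 3 left out, 7 of 17 passed in SP, where 16.4% of all genes did.

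Of 6 listed DNA-binding partners, with Spi1 among them, 4 were tested and 0 passed with limma in either organ. In SP 2 of 4 passed when WT SP replicate 3 was left out, where 16.4% of all genes did. DESeq2 called 1 in SP (Spi1, adjusted p = 0.0355), where it called 3.98% of all genes. Without replicate 3 of every group, limma called 3 in SP, where 7.47% of all genes passed. Batf2, an IFN-inducible AP-1 factor that pairs with IRF1, had 11.4, 2.12 and 5.07 normalized counts in WT SP and 89.1, 49.3 and 14.9 in Δβ SP, but the Δβ BM replicates had 52.2, 38.5 and 0. Its log2 fold change was 2.76 in SP (SE 1.31, adjusted p = 0.354 by limma). Without replicate 3 of every group, which drops its lowest Δβ SP library, it was 3.44 in SP (adjusted p = 0.0393 by limma). In BM it was 0.76 (adjusted p = 1.0) and without Δβ BM replicate 3 it was 2.60 (adjusted p = 0.756). The corepressors of IRF2 were 3 genes of which 0 passed, and Irf2bp1 had a log2 fold change of 0.27 in SP without overlap of the groups (adjusted p = 0.584). In SP 7.92% of all genes tested were higher without overlap.

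The interferon genes themselves had almost no reads assigned to them in these libraries. None of 9 listed genes passed the filter. Ifna1, Ifna2, Ifna4, Ifna5, Ifna6, Ifnl2 and Ifnl3 had 0 reads in each of the 12 libraries, which allows up to 3 reads per library and covers counting error only. The Ifna and Ifnl genes belong to families of similar genes, so reads that fit several of them could have been dropped. This was not tested, and 0 assigned reads therefore do not show that these genes were not transcribed. Ifnb1 had at most 1 read in a library, in Δβ SP. Ifng reached 10 reads in Δβ BM replicate 1, the library with the highest T and NK cell marker sum, and at most 4 reads in the other groups.

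The other members lie on GRCm38 at chr8:46739732-46847458 (Irf2), chr7:44997648-45002848 (Irf3), chr13:30749226-30766976 (Irf4), chr6:29526625-29541871 (Irf5) and chr14:55603571-55610030 (Irf9) on the plus strand, and at chr7:141262706-141266481 on the minus strand (Irf7). Several members share exonic bases with annotated neighbours in GENCODE M21, and the strand setting of the counting is not given in the sources used here. On the opposite strand these are Bcl2l12 for Irf3, Tnpo3 for Irf5, Phrf1 for Irf7 and Gm17334 for Irf1. Rnf31 overlaps Irf9 on the same strand. Levels of these members are uncertain to the extent that reads were assigned to the neighbour or dropped. In these bulk libraries, a change in the share of cells that express a gene and a change of RNA per cell cannot be told apart.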

How the data were processed

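RNA of Venus+ blasts was sequenced from poly-A enriched libraries. The authors deposited normalized counts, a signal per gene and library that is the read count divided by a size factor. Per the submitters' processing notes, FastQC, STAR, featureCounts and DESeq2 were used with GRCm38/mm10, and their versions are not given in the sources used here. Whole reads were recovered from the smallest step of each library (100% of values whole within 0.001). Another 6 columns of the table match no sample label and were not used.

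Groups follow the genotype and organ of the labels. For genes with a mean of at least 10 normalized counts, limma 3.58.1 in R 4.3.3 (lmFit, trended eBayes) was fitted to log2(normalized count + 1), with 1 mean per group and Benjamini-Hochberg adjustment over 11476 genes. Fold changes are on that scale and understate those of low genes. Groups of 3 allow an exact permutation p of 0.1 at the lowest, so p-values come from models across genes. The procedure was tested on simulated data. Alternatives were other pseudocounts, filters and scalings, eBayes without trend, edgeR 4.0.16 and DESeq2 1.42.0 on recovered reads, a fit of 6 libraries alone, a replicate block and each library left out. Same-numbered SP and BM libraries deviated together in Δβ blasts (r = 0.664, 0.608 and 0.634) and in no other combination of groups for every number, and the labels do not say what a number marks.

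Some genes of the family and its partners are not reported here. The members and gene lists were chosen with earlier results of these data known. Named from each list were genes with an adjusted p under 0.05, otherwise the 2 largest changes per organ without overlap of the groups, with Stat2 and Spi1 always, and for each member the 3 genes with the highest r. Gene positions come from GENCODE M21 and promoters from RefSeq (GRCm38.p6).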

Additional observations from a re-analysis of the deposited data

How the results depend on the processing

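The count of members past an adjusted p of 0.05 was 0 in each of the 6 comparisons and stayed at 0 under other pseudocounts, filters and scalings, eBayes without trend, edgeR, DESeq2, 6 libraries alone and the replicate block, which changed no call. It moved only when libraries were left out. In SP it ranged from 0 to 2 members over these fits, with 2 without WT SP replicate 3 (Irf2 and Irf5, beside 16.4% of all genes). It was 2 without WT SP replicate 3 and Δβ BM replicate 3, and 2 without replicate 3 of every group (Irf1 and Irf4, beside 7.47% of all genes). For SP against BM in WT blasts it ranged from 0 to 2, with 1 without replicate 3 of every group (Irf7). It was 2 without WT SP replicate 3 and Δβ BM replicate 3 (Irf7 and Irf9, beside 7% of all genes). Where no share of all genes is given, the count is not read as a result about the members.

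Of 464 log2 fold changes of members under the other settings, 6 changed sign. For Δβ against WT in SP, Irf3 (-0.03) was 0.0038 after TMM rescaling, 0.063 after quantile normalization and 0.0038 with edgeR. In BM, Irf2 (-0.02) was 0.0063 after quantile normalization, 0.014 with edgeR and 0.0051 with DESeq2. With libraries left out, 35 of 640 values changed sign, in 14 results. In SP, Irf3 ranged from -0.077 to 0.0056, Irf5 from -1.37 to 0.077 and Irf7 from -0.38 to 0.82. In BM, Irf2 ranged from -0.22 to 0.16, Irf5 from -0.53 to 0.026 and Irf8 from -0.23 to 0.16. For SP against BM in WT blasts, Irf2 ranged from -0.0067 to 0.66, Irf5 from -0.21 to 1.24 and Irf8 from -0.75 to 0.075. In Δβ blasts, Irf1 ranged from -0.014 to 0.82, Irf2 from -0.18 to 0.17, Irf4 from -0.24 to 1.09, Irf5 from -0.18 to 0.40 and Irf8 from -0.012 to 0.46. The cause was not tested. Over all genes, the calls in SP were 12 with limma, 4 with edgeR, 457 with DESeq2 and 1884 without WT SP replicate 3, and in BM 8, 8 and 37 with the 3 tools. With 3 libraries per group, a difference of the size of Irf1's did not pass, and Irf4, with at most 135 reads in a library, is the member whose level is least precisely counted.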
